A study of Mus musculus with 6 samples.

Results

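The values of 9 genes that store, move or sense iron were described in mouse hematopoietic stem cells: the ferritin chains Fth1 and Ftl1, the transferrin receptor Tfrc, the exporter Slc40a1, the importer Slc11a2, the heme-degrading enzyme Hmox1, the iron regulatory proteins Aco1 and Ireb2, and the ferritin cargo receptor Ncoa4. They were taken by symbol and not by their values, each was found once, and they are 9 of 26216 gene names. All 9 lay in the more strongly expressed part of the list that was tested.

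The study asked what the lymphotoxin beta receptor, encoded by Ltbr, does in hematopoietic stem cells. LT/ST-HSCs (viable lineage-negative bone marrow cells positive for Sca1, c-kit and CD150 and negative for CD48) were sorted for RNA-seq 6 weeks after lethally irradiated Ly5.1/Ly5.2 recipients had been given a mixture of Ltbr-/- and Ly5.1 LSKs, so both genotypes came from one kind of irradiated host. The knockout cells carried CD45.2 and a germline deletion in Ltbr, and came from donors of 13 weeks (replicate 1), 10 weeks (replicate 2) and 10 to 13 weeks (replicate 3). The Ly5.1 control cells carried CD45.1 and functional Ltbr, and came from donors of 7 to 13 weeks. Cells of 6 chimeras were pooled to 3 replicates per genotype, so that the spread between replicates is a spread between pools. The CD45 type and the donor ages went with the genotype, and their part in any difference below cannot be told apart from that of Ltbr.

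Cells take up transferrin-bound iron through Tfrc and iron released into endosomes or offered as free ions through Slc11a2, keep spare iron in ferritin, which is a shell of heavy (Fth1) and light (Ftl1) chains, and let iron out through Slc40a1, ferroportin. When cytosolic iron is scarce, the iron regulatory proteins Aco1 and Ireb2 bind a hairpin called the iron responsive element, which blocks translation when it lies in the 5′ UTR of ferritin mRNA and protects the mRNA from decay when it lies in the 3′ UTR of Tfrc. Transcription of Fth1, Ftl1 and Hmox1 is also known to respond to heme and oxidative stress through Bach1 and Nrf2. Iron handling is of interest in stem cells because free iron promotes the formation of reactive oxygen species.

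The elements that tie these genes together are shown because storage and uptake genes carry the same hairpin at opposite ends of the mRNA. GENCODE M21 transcripts (GRCm38) were searched on the sense strand for an unpaired C, 5 bases, the loop CAGTGN or CAGAGN with any last base but G, and 5 bases able to pair with the first 5, G with T included. The windows of 30 bases below read 5′ to 3′ and the loop is in capitals.
Fth1 5′ UTR, chr19:9982732-9982761, plus strand: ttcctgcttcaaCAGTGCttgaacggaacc
Ftl1 5′ UTR, chr7:45459778-45459807, minus strand: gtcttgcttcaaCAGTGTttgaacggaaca
Slc40a1 5′ UTR, chr1:45925464-45925493, minus strand: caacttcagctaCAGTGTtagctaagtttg
Tfrc 3′ UTR, chr16:32631160-32631189, plus strand: atttatcagtgaCAGAGTtcactataaata
Tfrc 3′ UTR, chr16:32631219-32631248, plus strand: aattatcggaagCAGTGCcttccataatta
Tfrc 3′ UTR, chr16:32631598-32631627, plus strand: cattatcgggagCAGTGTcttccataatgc
Tfrc 3′ UTR, chr16:32631663-32631692, plus strand: ctatatcggagaCAGTGAtctccatatgtt
Tfrc 3′ UTR, chr16:32631710-32631739, plus strand: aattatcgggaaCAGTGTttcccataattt

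The windows of Fth1 and Ftl1 were identical at 26 of 30 bases, and Tfrc held 5 matches in its 3′ UTR. Of the 9 genes, 4 held a match. A match to the same pattern, whose stem bases may differ, occurred in a 5′ UTR of 53 of 21877 coding genes (0.242%) and in a 3′ UTR of 190 (0.868%). A match describes the sequence and does not show that a protein binds it. The search asked for 5 unbroken pairs and a fixed loop. A gene without a match, Slc11a2 included, may therefore still hold an element of another form.

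Values are the deposited signal, which was taken as 2 to the power of the authors' regularized log (from their methods and the form of the values, since no header states the scale), and folds and differences are on its log2 scale. A gene was called when the Benjamini-Hochberg adjusted p of limma was under 0.05 and the fold was at least 1.5. The files give no counts per gene, so the number of reads behind a value could not be computed, and the median log2 value of tested genes lay between 8.46 and 8.47 in all 6 samples. Ltbr itself was at 24.2, 26.4 and 23.1 in the knockout samples and at 564, 549 and 522 in the Ly5.1 samples, which fits their labels. Ptprc, the gene of CD45, had a log2 fold change of -0.19 (limma adjusted p = 0.0879).

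Both ferritin chains and Hmox1 were higher in Ltbr-/- than in Ly5.1 LT/ST-HSCs: Ftl1 by 2.23-fold, Fth1 by 1.89-fold and Hmox1 by 2.23-fold. The other 6 genes did not pass, and their log2 fold changes ran from -0.22 to 0.10 with limma adjusted p from 0.139 to 0.790. Thus 3 of 9 genes were called higher and 0 lower, where 2.72% of all 13108 tested genes were called higher, 0.061% lower and 2.78% in either direction. The same 3 of 9 passed on adjusted p alone, as did 14.8% of all tested genes. The median log2 fold change of the 9 genes was -0.05 and that of all tested genes -0.01. These are pooled cells, and a larger share of cells that express a gene cannot be told apart from more RNA per cell.

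**Figure D1:**
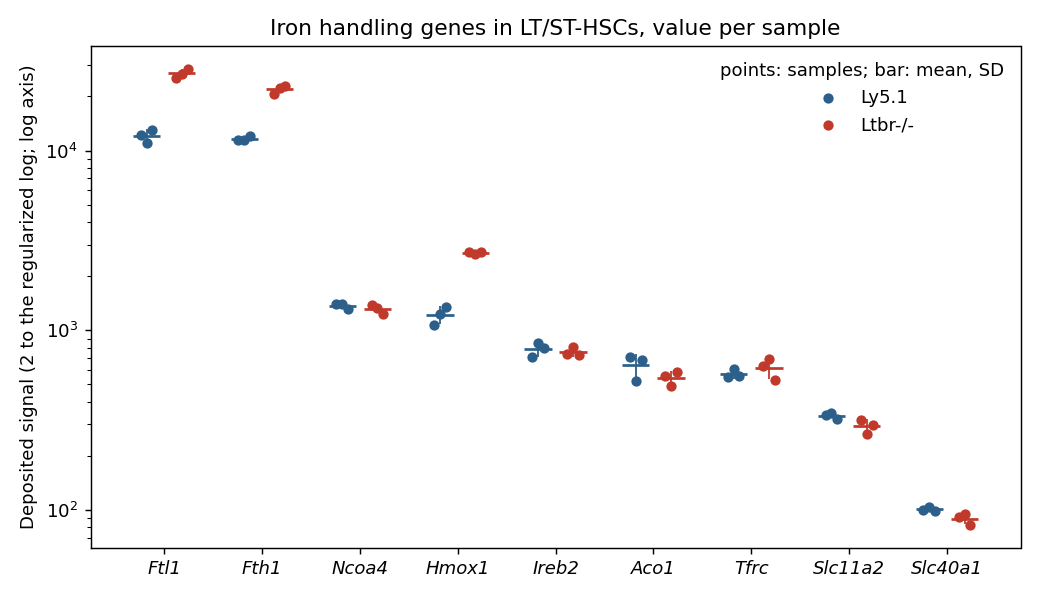
Deposited signal (log axis) of the 9 genes in each sample, with the mean and SD of 3 Ly5.1 samples (blue) and 3 Ltbr-/- samples (red). The Ltbr-/- samples of Ftl1, Fth1 and Hmox1 sit above all Ly5.1 samples, by 2.23-, 1.89- and 2.23-fold on average, while the other 6 genes lie close together.

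Fth1 (chr19:9980600-9985111, plus strand, GRCm38.p6) encodes the heavy chain, which oxidizes ferrous iron so that it can be stored. Its signal was 20648, 22344 and 22859 in Ltbr-/- replicates 1, 2 and 3, and 11416, 11379 and 12043 in Ly5.1 replicates 1, 2 and 3. The lowest Ltbr-/- sample lay far above the highest Ly5.1 sample, and the samples of a genotype lay close together. The means were 21950.4 ± 1157 (SD, n = 3) and 11613 ± 373 (SD, n = 3), a log2 fold change of 0.92 (SE 0.06, limma adjusted p = 9.16e-15).

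Ftl1 (chr7:45457944-45459886, minus strand) encodes the light chain, which lacks the oxidase site and favours formation of the iron core. It reached 25423, 26590.0 and 28505 in the Ltbr-/- samples and 12225, 10947 and 13057 in the Ly5.1 samples. Again the groups did not overlap. With means of 26839 ± 1556 (SD, n = 3) and 12076 ± 1063 (SD, n = 3), the log2 fold change was 1.15 (SE 0.06, limma adjusted p = 1.30e-16). Of the windows of 76 bases, the read length, in Ftl1 transcripts, 42% also occurred in 6 other annotated genes, among them the pseudogenes Ftl1-ps1 and Ftl1-ps2. None of those 6 names has a value in the files, so reads from them may be counted in Ftl1. The shares given here pool the windows of all annotated transcripts of a gene. The share within the main mRNA alone was not computed and may be larger, so the size of the uncertainty in the Ftl1 value is not known. In Fth1 the shared part was 0.855%, in Ncoa4 16.8%, and in the other 6 genes no window was shared. The remaining ferritin symbol in the files, Fthl17, and mitochondrial ferritin, Ftmt, were listed at 1 in every sample, the value of genes with no signal.

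Hmox1 (chr8:75093618-75100593, plus strand) encodes heme oxygenase 1, which opens the heme ring and releases its iron. The Ltbr-/- samples read 2726, 2647 and 2740 and the Ly5.1 samples 1077, 1225 and 1355. The Ltbr-/- samples were nearly equal, and all stood above the spread of the Ly5.1 samples. The means of 2704 ± 50.4 (SD, n = 3) and 1219 ± 139 (SD, n = 3) gave a log2 fold change of 1.16 (SE 0.09, limma adjusted p = 2.80e-13). By size of the log2 fold change, Hmox1 ranked 8, Ftl1 9 and Fth1 79 among the tested genes.

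The uptake genes did not pass. Tfrc (chr16:32608896-32632794, plus strand), the receptor for transferrin-bound iron, was at 634, 693.0 and 529.8 in Ltbr-/- and at 552.5, 613 and 554 in Ly5.1 samples. Ltbr-/- replicate 2 was the highest and replicate 3 the lowest of all 6, so the groups overlapped. Its log2 fold change was 0.10 (SE 0.10, 95% interval -0.10 to 0.30, limma adjusted p = 0.542). Slc11a2 (chr15:100387898-100424209, minus strand), the ferrous iron importer DMT1, was at 319, 265 and 297 in Ltbr-/- and at 338, 345 and 323 in Ly5.1 samples. Each Ltbr-/- sample was below each Ly5.1 sample, but the gaps were small and the log2 fold change of -0.19 (SE 0.10) had a limma adjusted p of 0.181.

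Slc40a1 (chr1:45908070-45926532, minus strand), the exporter ferroportin, was the weakest of the 9 genes, at 91.0, 94.9 and 82.7 in Ltbr-/- and 100.4, 103.4 and 98.7 in Ly5.1 samples. Here too the groups did not overlap, with the Ltbr-/- samples lower. The log2 fold change was -0.17 (SE 0.08, 95% interval -0.33 to -0.02, limma adjusted p = 0.139). Values without overlap were found for 5 of the 9 genes, and for 30.4% of all tested genes.

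Of the iron sensors, Aco1 (chr4:40143265-40199009, plus strand), which is a cytosolic aconitase when it holds an iron-sulfur cluster and binds RNA when it does not, read 556, 491 and 583 in Ltbr-/- and 708, 525 and 680.2 in Ly5.1 samples. Ly5.1 replicate 2 lay within the Ltbr-/- range, and the log2 fold change was -0.22 (SE 0.10, limma adjusted p = 0.151). Ireb2 (chr9:54862658-54912534, plus strand), which is degraded when iron is plentiful, read 736, 806 and 727 in Ltbr-/- and 709, 848 and 793 in Ly5.1 samples. The Ly5.1 samples enclosed all Ltbr-/- samples, and the log2 fold change was -0.05 (SE 0.09, limma adjusted p = 0.790). Ncoa4 (chr14:32159879-32179855, plus strand), which carries ferritin to the lysosome for release of its iron, read 1382, 1335 and 1234 in Ltbr-/- and 1408, 1397 and 1307 in Ly5.1 samples. Its groups overlapped as well, with a log2 fold change of -0.06 (SE 0.09, limma adjusted p = 0.714).

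For each gene alone, the exact two-sided permutation test gave p = 0.1 for Fth1, Ftl1, Hmox1, Slc40a1 and Slc11a2, which is the smallest p that 3 samples against 3 can give. The exact permutation p of the other 4 genes was between 0.3 (Aco1) and 0.7 (Ireb2). The limma p draws on the variance of all tested genes. A linear model of each gene by itself gave an adjusted p of 0.0233 for Fth1, 0.0253 for Ftl1 and 0.0255 for Hmox1, all still called.

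Divided by transcript length, the ferritin chains were the most abundant of these mRNAs in Ly5.1 cells, at 12500.5 ± 402 (Fth1) and 12475 ± 1098 (Ftl1) signal per kilobase (SD, n = 3), and they did not differ beyond their spread. Hmox1 followed at 777 ± 88.7, Ncoa4 at 337 ± 13.6, Aco1 at 166 ± 25.8, Ireb2 at 136 ± 12.2, Tfrc at 117 ± 7.05, Slc11a2 at 75.9 ± 2.61 and Slc40a1 at 29.9 ± 0.70. Among these, Aco1 and Ireb2 overlapped, as did Ireb2 and Tfrc. In Ltbr-/- cells Ftl1 stood at 27727 ± 1607 and Fth1 at 23628 ± 1245 signal per kilobase, and their ranges no longer overlapped. The order of the other genes was the same, with Hmox1 at 1724 ± 32.2 and Slc40a1 at 26.6 ± 1.84, and Aco1, Ireb2 and Tfrc overlapped.

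Differences between genes within a library are the same under any scaling by 1 factor per library. The light chain stood higher relative to the heavy chain in each Ltbr-/- sample: log2 Ftl1 minus log2 Fth1 was 0.30, 0.25 and 0.32 in Ltbr-/- and 0.10, -0.06 and 0.12 in Ly5.1 samples. The groups did not overlap, and the difference between them was 0.24 (SE 0.06, exact two-sided permutation p = 0.1, n = 3 per group). The storage gene Fth1 was also compared with the uptake gene Tfrc. Log2 Fth1 minus log2 Tfrc was 5.03, 5.01 and 5.43 in Ltbr-/- and 4.37, 4.22 and 4.44 in Ly5.1 samples, so that the signal of Fth1 was 35.7 times that of Tfrc in the former and 20.3 times in the latter. All Ltbr-/- samples were above all Ly5.1 samples, with a difference of 0.81 (SE 0.15, exact two-sided permutation p = 0.1, n = 3 per group). Log2 Hmox1 minus log2 Fth1 was -2.92, -3.08 and -3.06 in Ltbr-/- and -3.41, -3.22 and -3.15 in Ly5.1 samples, a difference of 0.24 (SE 0.09, exact two-sided permutation p = 0.1, n = 3 per group) with no overlap. Quantile normalization, which is not such a scaling, gave 0.44 for Fth1 minus Tfrc and 0.56 for Hmox1 minus Fth1. The loess corrections described below are not such a scaling either. With length, GC content and mean signal in the curve, Ftl1 and Fth1 had nearly equal log2 fold changes (0.43 and 0.42), and Tfrc had 0.15.

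Fth1 did not stand apart from the ribosomal protein genes. Those 79 genes are short and strongly expressed, 72 of them were called higher, and their median log2 fold change was 0.79. Log2 Fth1 minus their median was between 1.002 and 1.11 in Ltbr-/- and between 0.91 and 1.08 in Ly5.1 samples. The groups overlapped, with a difference of 0.05 (SE 0.06, exact two-sided permutation p = 0.5, n = 3 per group), and of -0.072 with quantile normalization. For Ftl1 and Hmox1 this comparison was added after their values were seen. Both were higher relative to the ribosomal median in Ltbr-/- than in Ly5.1 samples. The difference was 0.28 (SE 0.04) for Ftl1 and 0.29 (SE 0.07) for Hmox1. Each was without overlap and had an exact two-sided permutation p = 0.1 (n = 3 per group). Neither was computed with quantile normalization, with a loess curve removed or with a sample left out.

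**Figure D2:**
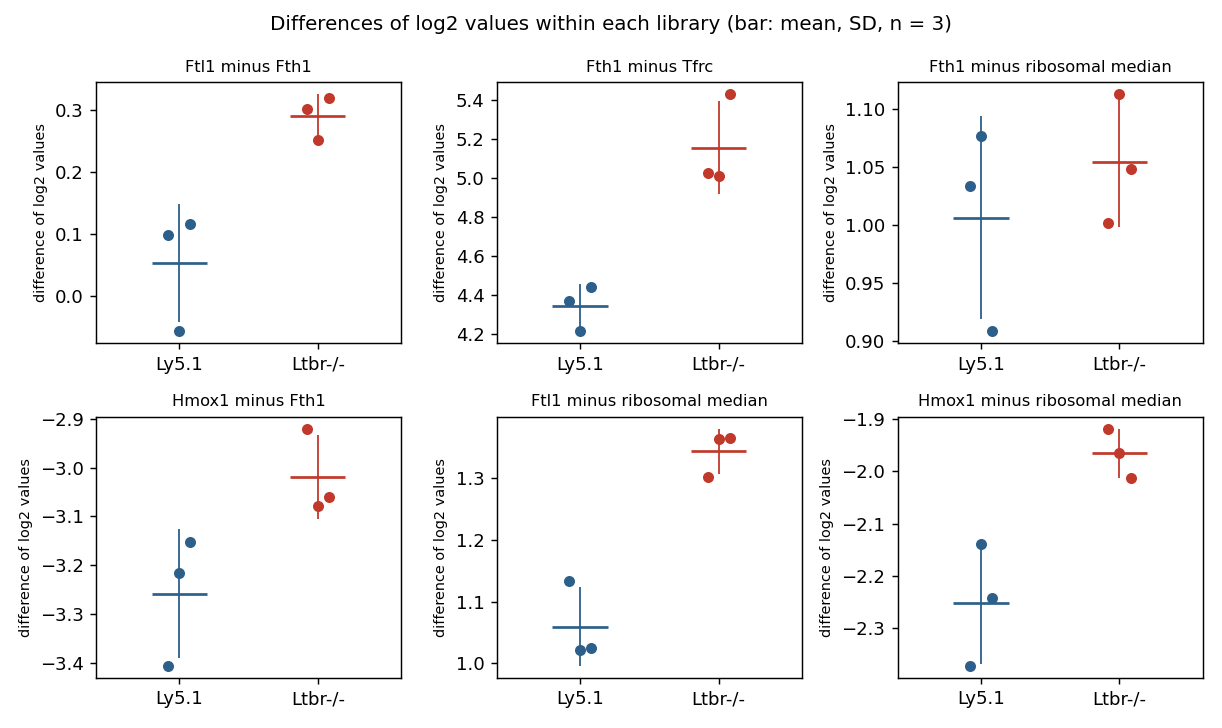
Differences of log2 values between 2 genes, or a gene and the median of 79 ribosomal protein genes, in each library, with the mean and SD of 3 Ly5.1 samples (blue) and 3 Ltbr-/- samples (red); each panel has its own axis range. Fth1 minus the ribosomal median overlaps between genotypes (difference 0.05), and the other 5 differences do not overlap.

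The log2 fold changes of strongly expressed genes were higher where transcripts were shorter, and the called genes have the shortest transcripts of the 9. The longest coding transcript has 968 bases for Ftl1, 1494 for Fth1 and 1569 for Hmox1, and between 3370 (Slc40a1) and 5770 (Ireb2) for the genes that did not pass. Of all tested genes with a transcript no longer than that of Hmox1, 9.43% were called higher, as were 14.1% of those with a mean at or above that of Hmox1 and 51.9% of the 54 with a mean at or above that of Fth1. Among tested genes at least as strong as Hmox1, 52.4% of the 275 whose transcript is no longer than that of Hmox1 were called higher, against 4.15% of the 1132 with a longer one. The median log2 fold change of those 275 genes was 0.61, and 46 of them had a larger log2 fold change than Fth1, 7 than Ftl1 and 6 than Hmox1. The part of length in the ferritin and Hmox1 values was not tested, but the fold changes were computed again with a loess curve removed. A curve on transcript length and GC content left 0.81 for Fth1, 0.99 for Ftl1 and 1.05 for Hmox1, all still called. A curve on length, GC content and mean signal, a setting chosen after the data were seen, put 0.50 on Fth1, 0.72 on Ftl1 and 0.23 on Hmox1. What remained was 0.42 for Fth1 (limma adjusted p = 1.57e-06) and 0.43 for Ftl1 (limma adjusted p = 2.82e-06), both under the fold of 1.5, and 0.92 for Hmox1 (limma adjusted p = 2.14e-10), which was still called.

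**Figure D3:**
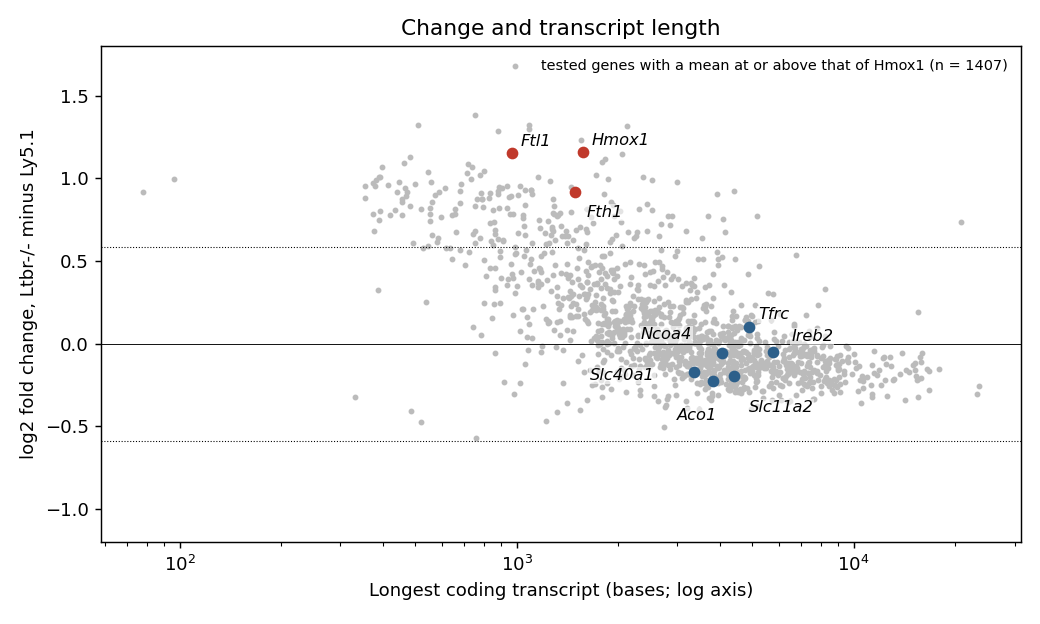
Log2 fold change against the length of the longest coding transcript (log axis) for 1407 tested genes with a mean at or above that of Hmox1 (grey) and the 9 genes (red, called; blue, not called); dotted lines mark a fold of 1.5. Short transcripts lie higher, and Fth1, Ftl1 and Hmox1 are among them at 0.92, 1.15 and 1.16.

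The scaling of the libraries also bore on the ferritin calls. With quantile normalization the log2 fold change of Fth1 was 0.54 (limma adjusted p = 7.94e-10), under the fold of 1.5, while Ftl1 (0.77) and Hmox1 (1.10) were still called. Centring each library on its ribosomal protein genes, which lowers the median of all genes to -0.88, left 0.05 for Fth1 (limma adjusted p = 0.453), 0.28 for Ftl1 (limma adjusted p = 3.45e-06) and 0.29 for Hmox1 (limma adjusted p = 0.0118), none of them called, and turned Tfrc to -0.77.

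**Figure D4:**
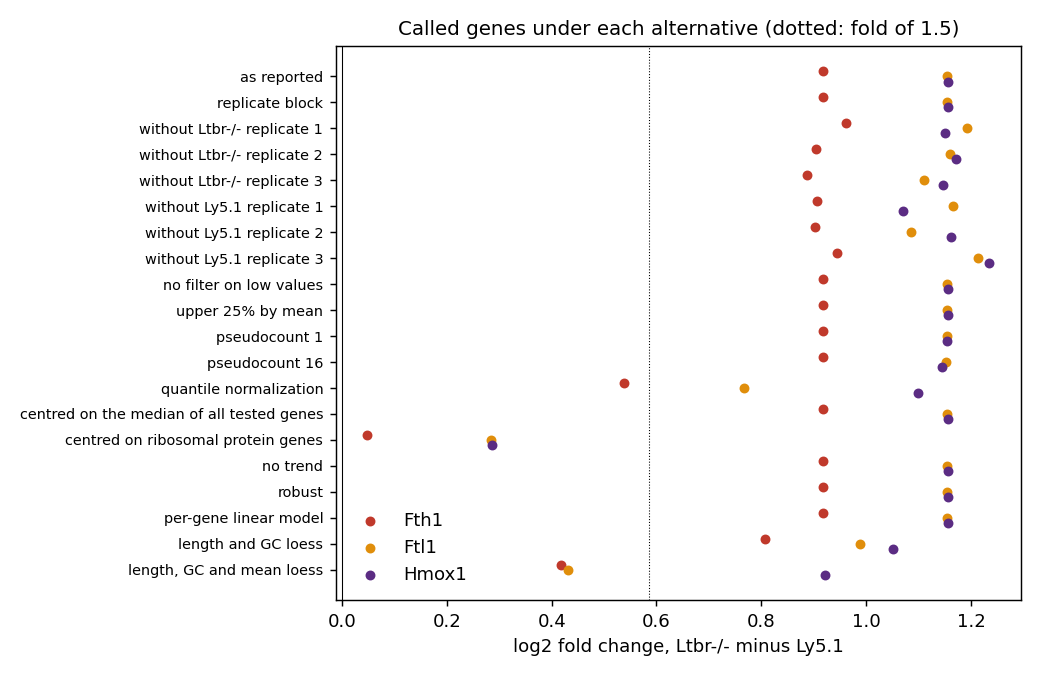
Log2 fold changes of Fth1 (red), Ftl1 (orange) and Hmox1 (purple) as reported and under 19 alternatives, with a dotted line at a fold of 1.5. Leaving out any 1 sample keeps Fth1 between 0.89 and 0.96, while quantile normalization, centring on ribosomal protein genes and the loess curve with the mean take it under the line.

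Of the genes around the called members, Bax, which encodes a pore-forming apoptosis protein and lies 1809 bases from Ftl1, was also called higher: 4290.0 ± 288 against 2251 ± 145 (SD, n = 3), a log2 fold change of 0.93 (SE 0.08, limma adjusted p = 7.67e-12). On the other side of Ftl1, Gys1, the muscle glycogen synthase gene, had 0.37 (SE 0.09, limma adjusted p = 0.00548), short of the fold. The tested neighbours of Fth1 (Incenp at 0.11 and Rab3il1 at -0.16) and of Hmox1 (Tom1 at 0.13 and Mcm5 at 0.01) did not pass.

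The genes whose log2 values followed those of the called members most closely over the 6 samples included ribosomal protein genes for each of the 3. For Fth1 they were Gm6834, Gm14279 and Rpl27 (Pearson's r 0.9998, 0.9994 and 0.9993), for Ftl1 Rps12, Nop10 and Gapdh (0.9997, 0.9997 and 0.9994), and for Hmox1 Rps13, Rpl9 and Ptges3l (0.9998, 0.9995 and 0.9994). Many other genes came close, and 713 genes reached 0.95 with Fth1, 689 with Ftl1 and 653 with Hmox1. Over these 6 samples, any gene with a clear step between genotypes in the same direction correlates highly. Such r values therefore show no link beyond the shared difference between genotypes.

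The other genes with a match to the hairpin pattern were also read. Of 38 tested genes with a match in a 5′ UTR, 4 were called higher (Fth1, Ftl1, Egfl7 and Krtcap2) and 0 lower, which is 10.5% where 2.72% of all tested genes were called higher and where 2 of the 4 are the ferritin chains themselves, and their median log2 fold change was -0.03. Of 120 with a match in a 3′ UTR, 0 were called, with a median of -0.02 and a highest value of 0.49. Slc40a1, which holds a match in its 5′ UTR like the ferritin chains, had a log2 fold change of -0.17, as given above.

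The lists of iron and heme pathways hold 101 genes outside the 9, of which 77 were tested: 2 were called higher (Blvrb and Bola2) and 0 lower, 9 were higher and 1 lower by limma adjusted p alone, and the median log2 fold change was 0.03. These counts are near those of all tested genes, of which 2.78% were called and 14.8% passed on adjusted p alone. The nearest to Hmox1 in function is Blvrb, biliverdin reductase B, which reduces products of heme breakdown. It read 1513, 1442 and 1585 in Ltbr-/- and 909, 961 and 917 in Ly5.1 samples, with no overlap. Its log2 fold change was 0.70 (SE 0.09, limma adjusted p = 4.23e-08), but it fell under the fold of 1.5 with loess on length and GC content (0.54) and with the mean added (0.40), and was -0.17 with ribosomal centring.

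In the list of ferritin storage and delivery, 2 of 6 tested genes were called (Fth1 and Ftl1), and Pcbp2, which carries iron to ferritin, had 0.25 (limma adjusted p = 0.0133), short of the fold. Of 11 tested iron uptake genes 0 passed on adjusted p, with log2 fold changes from -0.23 to 0.10 and a median of -0.08. In the list of export and hepcidin only Slc40a1 and 1 other gene were tested, neither was called, and 7 genes, the hormone gene Hamp among them, were listed at 1 in all samples. The list of iron regulatory proteins and iron sensing had 0 calls in 7 tested genes and values from -0.25 to 0.10.

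Of 34 tested genes of mitochondrial iron and iron-sulfur clusters, 1 was called, Bola2, an adaptor for cluster transfer, at 1541 ± 51.2 against 1009 ± 133 (SD, n = 3), a log2 fold change of 0.62 (SE 0.09, limma adjusted p = 2.14e-06). Cisd3 (0.54), Fam96b (0.48), Ciapin1 (0.35), Bola3 (0.35) and Bola1 (0.33) passed on adjusted p alone. By adjusted p alone, 14.8% of all tested genes passed. Of the 34 genes, 25 were above 0, and the median was 0.16, beside -0.01 for all tested genes. None of 14 heme synthesis genes was called. The enzyme Alad, which forms porphobilinogen, had the largest value that passed on adjusted p, 0.38 (limma adjusted p = 0.00185), and the median was 0.04. In heme breakdown and transport 2 of 12 tested genes were called (Hmox1 and Blvrb), and Hp, the hemoglobin-binding protein haptoglobin, was lower by adjusted p alone with -0.37 (limma adjusted p = 0.00389).

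Genes known as targets of Nrf2, apart from the ferritin chains and Hmox1, were represented by 18 tested genes with a median log2 fold change of -0.0004. Among them 1 was called, Taldo1, the transaldolase of the pentose phosphate pathway, at 6065 ± 63.1 against 3887 ± 483 (SD, n = 3), a log2 fold change of 0.65 (SE 0.08, limma adjusted p = 3.54e-08). Txn1 and Gsta4 passed on adjusted p alone with 0.53 and 0.42. Nqo1, a quinone reductase often used to read out Nrf2, had -0.07 (limma adjusted p = 0.665). Of 10 genes that encode or regulate Nrf2 and Bach1, 0 passed, and Nfe2l2 and Bach1 themselves both had 0.01. These values are of mRNA and do not measure the activity of the factors.

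**Figure D5:**
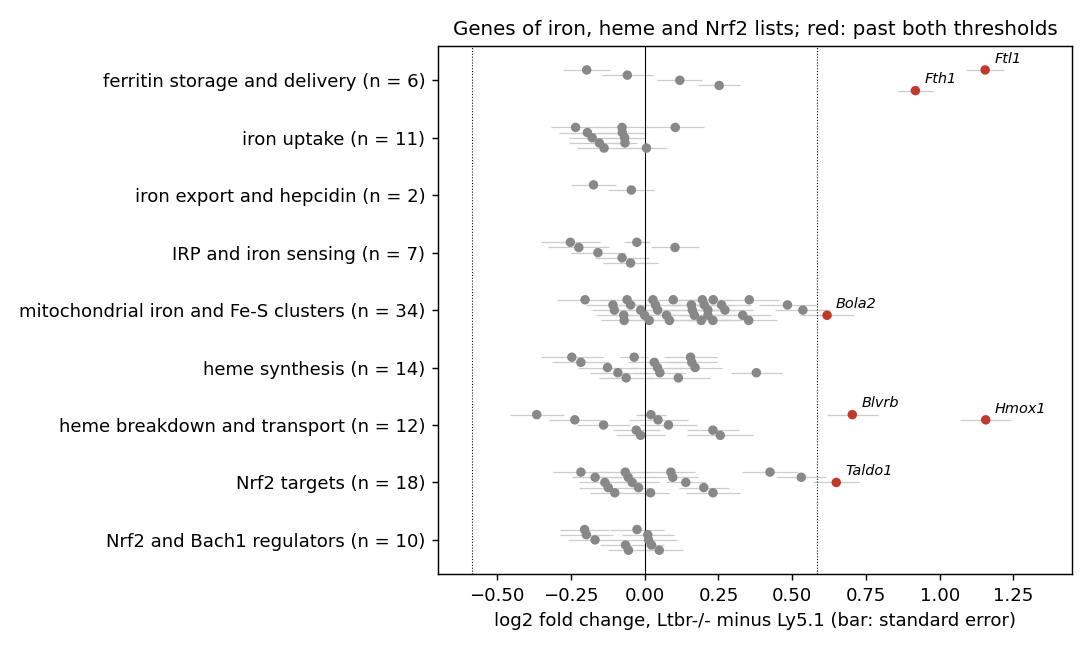
Log2 fold change (Ltbr-/- minus Ly5.1) of each tested gene in the 9 lists, with its standard error as a bar and called genes in red; dotted lines mark a fold of 1.5. The called genes are Fth1 (0.92), Ftl1 (1.15), Bola2 (0.62), Blvrb (0.70), Hmox1 (1.16) and Taldo1 (0.65), all higher.

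Markers of other cell types, some of which are rich in ferritin or heme enzymes, were also read. Of all tested genes, 2.72% were called higher and 0.061% lower. Of 10 tested macrophage markers 1 was called higher, Emr1 (F4/80) with 0.83, Cd68 had 0.28, Csf1r had -0.27 and Vcam1 -0.24, 5 of the 10 were above 0, and the summed signal of the list was 2780 to 3077 in Ltbr-/- and 2255 to 2517 in Ly5.1 samples. The complement genes C1qa and C1qc, which mark tissue macrophages, were low, with means of at most 18.9 in either genotype and log2 fold changes of -0.01 and 0.07, and Marco and Timd4 were listed at 1. Of 10 tested erythroid markers 2 were called higher, the near-identical Hba-a1 (0.99) and Hba-a2 (0.86), with sums of 4362 to 4675 and 2764 to 3202, while Hbb-b1 had 0.04 and Alas2 -0.04. Of 8 tested mast cell and basophil markers 1 was called higher, the chymase Cma1 (1.32), Cpa3 had 0.56, Prss34 was lower by adjusted p alone (-0.41) and Mcpt8 had -0.22, and the sums were 7819 to 8378 and 4351 to 4982. The differences between genotypes in these sums rest largely on the called genes. Their means in Ltbr-/- against Ly5.1 samples were 1241.5 against 694.7 for Emr1 and 5470.2 against 2195.1 for Cma1. For Hba-a1 they were 2129.5 against 1083.2, and for Hba-a2 1072.5 against 592.9.

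Neutrophil markers went the other way. Of 10 tested, 0 were called and 8 were lower by limma adjusted p alone (Camp furthest, with -0.57). By that threshold alone, 548 of all 13108 tested genes were lower and 1388 higher. The neutrophil sums were 44643 to 45412 in Ltbr-/- against 58386 to 63026 in Ly5.1 samples. Of 5 tested B and plasma cell markers, Cd79a (0.62) was called higher and Ighm (-1.04) and Igkc (-1.21) lower, with sums of 1462 to 1592 and 2322 to 2484. Megakaryocyte markers had 0 calls in 5 tested genes, with Itga2b (0.31) higher and Pf4 (-0.33) lower by limma adjusted p alone, and sums of 13849 to 14640.0 and 11732 to 13039. All 10 markers of hematopoietic stem cells were tested, 0 were called and 1 was above 0. By limma adjusted p alone, Ly6a (-0.39) was lower and Gata2 (0.22) higher. The sums of the 10 markers were 15766 to 16498 in Ltbr-/- and 16501 to 17201 in Ly5.1 samples. The part of other cells in the ferritin and Hmox1 values was not tested.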

How the data were processed

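The authors prepared stranded mRNA libraries, sequenced single reads of 76 bases, assembled them with SeqMan NGen and quantified them with ArrayStar, and the processing notes name DESeq2 and GRCm38 (mm10). The values the authors deposited are a signal, which was taken as 2 to the power of the regularized log named in the methods; the values are positive with like medians, but no header states the scale. On that reading it includes size factors and shrinkage, which understates changes of weak genes. Its log2 was used without pseudocount. The files hold no counts per gene, so no counting interval could be computed, and precision rests on 3 pooled samples per group.

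Each file has 26595 rows, and for repeated names the row with the highest mean was kept. Names in the upper 50% by mean (13108) were fitted with lmFit and eBayes with trend (limma 3.58.1, R 4.3.3). Called genes had a Benjamini-Hochberg adjusted p under 0.05 over all tested genes and a fold of at least 1.5. For differences between genes within a library, the test was an exact two-sided permutation (scipy 1.17.1, Python 3.11.15). In simulated data with 200 of 13108 genes changed by 1 on the log2 scale, 198 were recovered and 0 other genes called. The simulated noise was independent between genes and had no trend with transcript length or mean signal. The simulation therefore does not bear on calls that go with such a trend. Transcripts came from GENCODE M21 and positions from RefSeq GRCm38.p6. A gene's longest coding transcript was used for length, except for signal per kilobase, which used the transcript paired with RefSeq.

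The genes, lists and tests were chosen with earlier results of these data known. Named were the 9 genes, each gene of a list past both thresholds, or else the one with the largest change by adjusted p, the 3 genes most like each called gene, their nearest tested neighbours, and Ltbr; other genes were named after their values were seen. The settings varied were a replicate block, filters, pseudocounts, scalings, variance models and thresholds, loess corrections, and leaving out each sample.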

Additional observations from a re-analysis of the deposited data

How the results depend on the processing

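The count of 3 called genes among the 9 became 6, all lower, when libraries were centred on ribosomal protein genes, and 1 (Hmox1) when a loess curve on length, GC content and mean signal was removed, a setting added after the data were seen. It was within 1.5 times of 3 under the other 20 settings, and it was 3 when any 1 sample was left out (range 3 to 3). The 364 calls over all tested genes became 11976, all lower, with ribosomal centring, 1936 (1388 higher, 548 lower) without a fold threshold, 42 with a fold of at least 2, and 136 (104 higher, 32 lower) with that loess curve. Leaving out 1 sample gave 342 to 407. Ribosomal centring gave -0.77 for Tfrc, -1.04 for Slc40a1, -1.06 for Slc11a2, -0.92 for Ireb2, -1.09 for Aco1 and -0.93 for Ncoa4, beside an all-gene median of -0.88. Ireb2 was above 0 without Ly5.1 replicate 2 (0.012; -0.12 to 0.012 over all samples left out), with loess on length and GC content (0.023) and with the mean added (0.026). Loess on length and GC content without the mean gave 0.81 for Fth1, 0.99 for Ftl1 and 1.05 for Hmox1, all called. For the called genes Bax, Bola2 and Taldo1, values under these settings are not given. Fth1 minus the ribosomal median was -0.00095 without Ly5.1 replicate 3 and -0.072 with quantile normalization, and 0.083 at most when a sample was left out. The other differences within a library kept their sign in the settings run for them: Ftl1 minus Fth1 was 0.18 to 0.27, Fth1 minus Tfrc 0.68 to 0.89, and Hmox1 minus Fth1 0.16 to 0.29 when 1 sample was left out, and quantile normalization gave 0.44 for Fth1 minus Tfrc and 0.56 for Hmox1 minus Fth1. These differences were not computed with a loess curve removed. Those of Ftl1 and Hmox1 to the ribosomal median were not computed with quantile normalization or a sample left out either. With the curve on length, GC content and mean signal, the log2 fold changes were 0.43 for Ftl1, 0.42 for Fth1 and 0.15 for Tfrc. Ftl1 thus hardly differed from Fth1 there. The cause of these shifts was not tested. Both genotypes came from mixed chimeras, but the labels do not say whether equal replicate numbers mean the same pool of chimeras. Same-numbered samples correlated in their deviations by 0.03, -0.01 and 0.09, and other pairs by -0.07 to 0.05. With 3 samples per genotype such values cannot decide it. With the replicate block the fit gave 364 calls (356 higher, 8 lower) and 3 of the 9 genes, and the paired sign-flip p of the within-library differences was 0.25, the smallest it can be, or 0.5 for Fth1 minus the ribosomal median. The files give no counts per gene, so no limit of detection could be given.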
